A study of Mus musculus with 2 samples.

Results

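Of the 31053 genes counted in both libraries, 10 encode transcription factors that set the fate of T and NK cells: Tcf7, Lef1, Id3, Bach2, Foxo1, Klf2, Tbx21, Eomes, Prdm1 and Nfatc1. They were taken by name, not by a threshold on a measured value, but with earlier results of these data known. Their transcripts were followed in lymphocytes picked cell by cell by marker genes.

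The files hold droplet single-cell RNA-seq of tumor-infiltrating immune cells from mice bearing B16-OVA melanoma, sorted as live CD45.2+ cells. The control mice received PBS and the other group received creatine, and each group is 1 library in which 4 tumors were combined at harvest on day 14, although other passages of the study name another day and number of mice. The control library carries PBS as its treatment and is titled as untreated, but its protocol entry describes a 10.5 mg creatine injection, as does that of the creatine library. It was taken as the control by title and treatment, and every ratio below rests on that assignment. With 1 library per group and pooled animals there is no replicate, so no test was made. All intervals are exact 95% intervals of counting error and say nothing of the spread between mice. Those of levels and ratios take each counted molecule as independent, so they also leave out the spread between cells.

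TCF1 (the product of Tcf7) and LEF1 maintain naive, memory and progenitor-like T cells, ID3 and BACH2 restrain terminal effector differentiation, and FOXO1 and KLF2 keep quiescent cells circulating through lymphoid organs. T-bet (Tbx21) and EOMES drive the effector programs of CD8 T and NK cells, with T-bet marking later stages of NK cell maturation. Blimp-1 (Prdm1) promotes terminal effector and effector regulatory T cells, and NFATc1 acts downstream of antigen receptor signaling.

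After removal of cells with over 25% mitochondrial UMIs (unique molecular identifiers, each standing for 1 captured molecule), 7241 control and 6229 creatine cells remained, with 79319769 and 72091124 UMIs. CD8 T cells were split into naive-like cells (a naive-cell marker gene detected, no Pdcd1, Havcr2 or Lag3; 124 control and 158 creatine cells), checkpoint-positive cells (at least 2 of those 3 checkpoint genes; 799 and 673) and dividing cells (at least 3 of 9 cell cycle genes; 934 and 799). The CD4 gate without Foxp3 held 174 and 201 cells, the regulatory T (Treg) gate 287 and 187, and the NK gate 599 and 1071. Cells of the creatine library were deeper in every gate, with a median of 5617 against 4073 UMIs per NK cell. Levels are therefore given as UMIs of a gene per 1000000 UMIs of the gate (CPM), and shares of cells as the share expected with every cell thinned to 2000 UMIs. Gates were set on unthinned counts. A gate that requires absent genes can thus admit more cells with missed markers in the shallower control library, which was not tested.

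Genes outside the gating rules were checked against the gate names. Trac lay between 508 and 1170 CPM in the 5 T cell gates against 19.4 and 20.5 in NK cells. Klre1, an NK receptor gene, stood at 589 and 700 CPM in NK cells but also at 254 and 157 in checkpoint-positive cells, and Ikzf2 stood at 1510 and 1880 in Treg cells. Tox was 384 CPM in checkpoint-positive cells of both libraries. The naive-like gate held the most Dapl1 (108 and 217 CPM), but also Gzma at 333 and 306 CPM and Ikzf2 at 202 and 241, so it is not made of naive cells alone. The CD4 gate held 395 CPM of Ikzf2 in the control and 259 after creatine, and Ctla4 at 174 and 101. The summed level of 15 genes of other lineages lay between 25.1 and 71.2 CPM in the 6 control gates and between 16.8 and 37.3 in the 6 creatine gates, against 2237 and 2072 in macrophages. From 1 to 8 of the 15 had no UMI in a gate.

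Promoters of 3 of these factors are shown, Klf2 because it was higher in the creatine library in all 6 gates and Prdm1 and Tcf7 because they hold letters bound by FOXO factors, members of the same network. RefSeq windows from 250 bases before to 50 bases after the start were searched on both strands, 13 windows for 9 of the genes (GRCm38.p6). The letters were GTAAACA (FOXO), ATCAAAG (TCF/LEF) and GGTGTGA (T-box). In the windows printed below 5′ to 3′, capitals mark the match. The Klf2 window is chr8:72318812-72319111 on the plus strand and holds none of these letters. The Prdm1 window is chr10:44458699-44458998 on the minus strand and holds the FOXO letters 231 bases before the start. The downstream Tcf7 start, chr11:52282546-52282845 on the minus strand, holds the FOXO letters from position 2 of the transcript.
Klf2: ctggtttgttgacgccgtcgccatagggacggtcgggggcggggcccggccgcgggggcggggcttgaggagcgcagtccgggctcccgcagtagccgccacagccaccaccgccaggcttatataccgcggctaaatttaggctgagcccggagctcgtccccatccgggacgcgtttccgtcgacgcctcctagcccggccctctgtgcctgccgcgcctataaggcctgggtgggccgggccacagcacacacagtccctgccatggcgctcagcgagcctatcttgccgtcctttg
Prdm1: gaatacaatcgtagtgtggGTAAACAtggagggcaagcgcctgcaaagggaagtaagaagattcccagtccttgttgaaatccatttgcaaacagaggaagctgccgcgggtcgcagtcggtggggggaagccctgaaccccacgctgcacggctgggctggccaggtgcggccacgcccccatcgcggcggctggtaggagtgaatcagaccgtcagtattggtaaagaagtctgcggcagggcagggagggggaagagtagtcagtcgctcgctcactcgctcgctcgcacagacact
Tcf7: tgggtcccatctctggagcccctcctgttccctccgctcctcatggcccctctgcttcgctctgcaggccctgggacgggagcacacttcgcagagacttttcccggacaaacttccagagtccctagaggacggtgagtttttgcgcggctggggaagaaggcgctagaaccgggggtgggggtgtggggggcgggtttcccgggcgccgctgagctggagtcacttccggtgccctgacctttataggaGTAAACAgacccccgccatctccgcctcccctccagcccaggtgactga
Of 32851 such windows, 3.65% held the FOXO letters, 3.73% the TCF/LEF letters and 3.98% the T-box letters. No TCF/LEF or T-box match was in the 13 windows. A match is a description of the sequence and not a measured site.

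The factors divided the gates by cell state in both libraries. Tcf7, the gene of TCF1, was highest in naive-like CD8 cells, at 234 CPM (201 to 270) in the control and 272 (243 to 302) after creatine. CD4 cells followed with 132 and 201 CPM and NK cells with 137 and 95.9, and the ranges of these neighbors over the libraries overlapped. Treg (9.10 and 18.6), checkpoint-positive (8.75 and 16.4) and dividing CD8 cells (7.48 and 6.82) were far below, a 35.3-fold span between the highest and lowest gate means. Lef1 (132 and 185 CPM in naive-like cells), Id3 (54.0 and 69.1), Klf2 (260 and 429) and Foxo1 (88.7 and 90.2) also had their highest mean in naive-like cells, although for Klf2 and Foxo1 the next gate overlapped. Bach2 was highest there as well (52.7 and 58.5 CPM), just above NK cells (50.5 and 49.4).

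Prdm1 had the opposite order. It was lowest in naive-like cells, with 3 control and 7 creatine UMIs (3.86 and 5.69 CPM), and highest in Treg cells at 92.3 and 85.7 CPM. Checkpoint-positive (49.9 and 57.3) and dividing CD8 cells (45.8 and 59.7) lay between and overlapped. Eomes had its highest level in NK cells, at 212 and 233 CPM. Among the CD8 gates naive-like cells stood highest (50.1 and 65.9), then dividing (43.8 and 46.2) and checkpoint-positive cells (31.8 and 29.8). Eomes was at 3.52 to 6.64 CPM in CD4 and Treg cells. In UMIs, all CD8 cells held 1137 control and 1252 creatine, and NK cells 591 and 1611. The gate means of Tbx21 spanned 2.57-fold, against 44.5-fold for Eomes, and lay apart only between NK cells (73.5 and 94.03 CPM) and the rest. Nfatc1 had its highest mean in checkpoint-positive cells (114 and 171 CPM), which overlapped CD4 cells (119 and 127), and was lowest in naive-like cells (72.0 and 63.4).

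**Figure D1:**
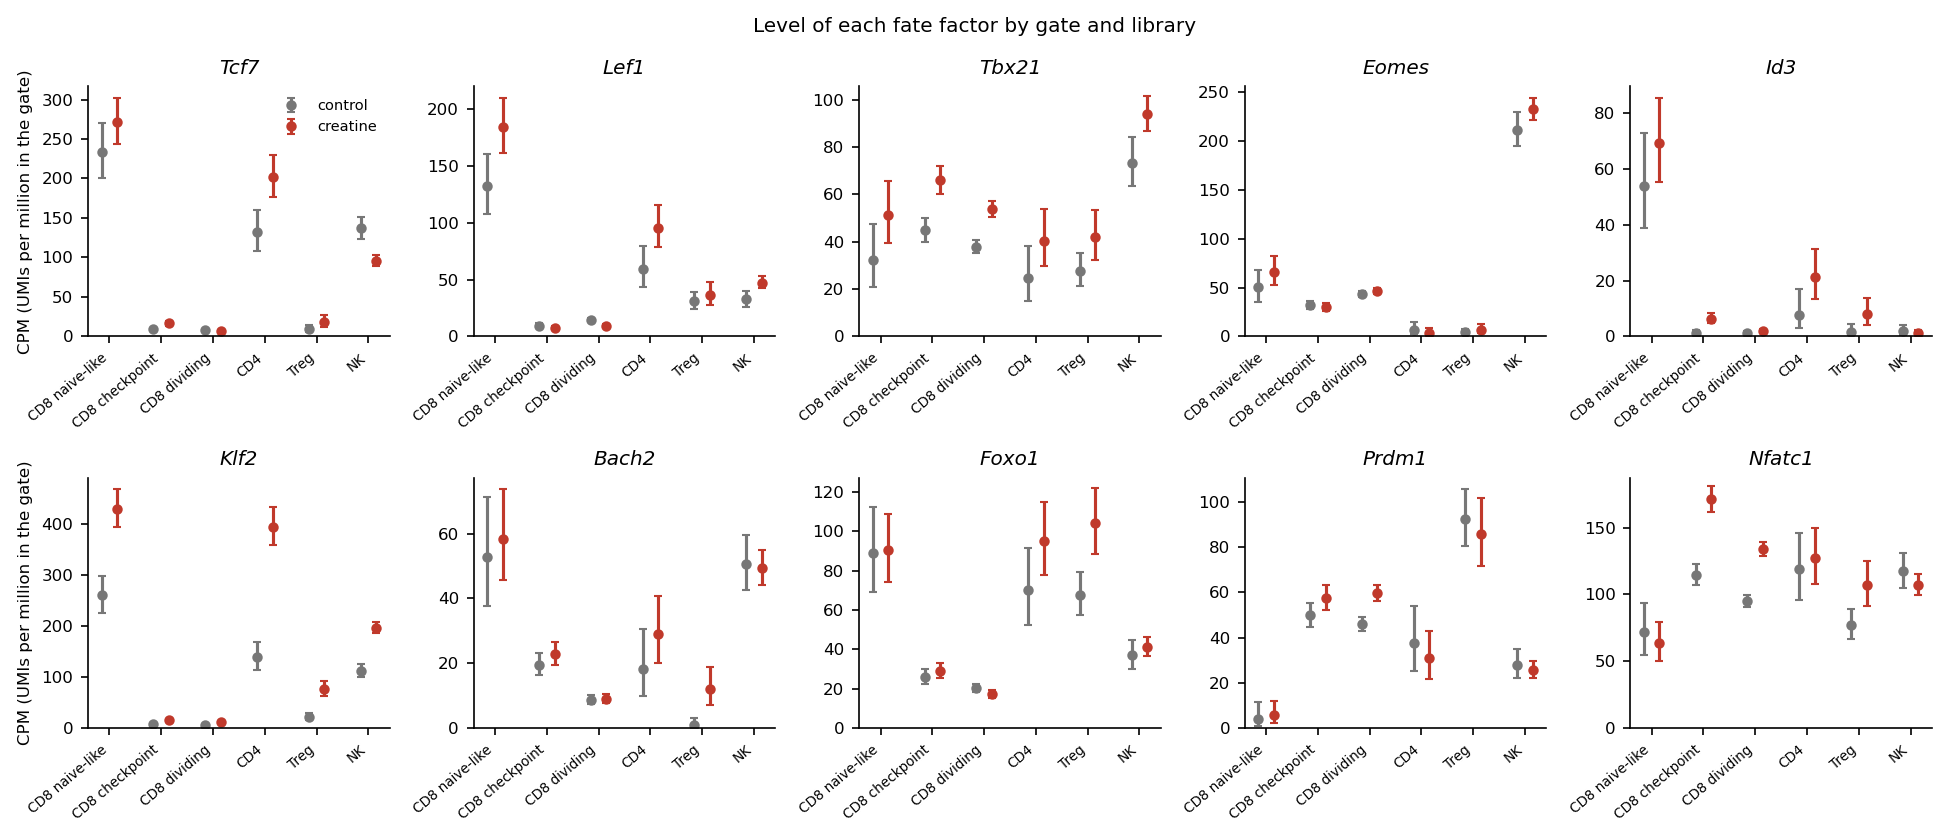
CPM of the 10 fate factors in 6 gates of the control (grey) and creatine (red) libraries, 1 panel per gene with its own axis from 0; points are 1 library each and bars are 95% Poisson intervals. Tcf7, Lef1, Id3 and Klf2 peak in naive-like CD8 cells, Eomes in NK cells and Prdm1 in Treg cells.

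Klf2, which maintains S1PR1 on circulating lymphocytes, was higher in the creatine library in each of the 6 gates. In CD4 cells it went from 139 CPM (114 to 167) to 394 (358 to 432), a log2 ratio of 1.51 (1.20 to 1.83). In Treg cells it went from 21.7 CPM (16.1 to 28.6) to 75.7 (62.5 to 91.0), a log2 ratio of 1.81 (1.31 to 2.32). Naive-like cells showed 260 and 429 CPM (log2 ratio 0.73, 0.49 to 0.97) and NK cells 112 and 196 (0.81, 0.63 to 0.99). Both control and creatine levels were low in checkpoint-positive (6.67 and 15.04 CPM) and dividing CD8 cells (5.84 and 11.9), with log2 ratios of 1.17 and 1.03. The intervals of both libraries lay apart in every gate.

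The share of cells with a Klf2 UMI was higher in the creatine library too, with intervals apart in CD4 and NK cells and overlapping in the other 4 gates. At 2000 UMIs per cell, 18.9% of control (13.2 to 26.2) and 41.7% of creatine CD4 cells (34.6 to 49.0) held a Klf2 UMI, against 27.6% and 54.7% before thinning. In Treg cells the shares were 5.02% (2.65 to 8.27) and 12.6% (7.96 to 18.2), and in naive-like cells 35.0% (26.5 to 44.2) and 49.1% (41.3 to 57.5). Klf2 was not confined to lymphocytes, since macrophages held 101 and 256 CPM (log2 ratio 1.34, 1.25 to 1.43). C1qa, a macrophage transcript, was lower in the creatine library in CD4 cells (50.5 and 30.8 CPM) and NK cells (49.1 and 20.2). The part of macrophage RNA in the Klf2 difference was not tested. When no gene of another lineage was allowed in a cell, the Klf2 log2 ratio was 1.00 in NK, 2.00 in Treg and 0.46 in naive-like cells, the last under 1.5 fold. With stricter gates it was 2.20 in CD4 cells. Among 19 immediate early and stress genes, a list added after the data were seen, 2 of the 11 with at least 100 UMIs in CD4 cells were higher by 1.5 fold and none lower, with a median log2 ratio of 0.30, where 4.31% of all genes were higher and 2.91% lower. In NK cells 4 of 15 were higher and none lower (median 0.27; all genes 2.65% and 2.28%), and in Treg cells 5 of 14 were higher and 1 lower (median 0.40; all genes 5.16% and 2.59%). In naive-like cells 3 of 9 were higher and none lower (all genes 3.23% and 1.89%), and in checkpoint-positive cells 2 of 15 and none (2.91% and 2.33%). Dividing cells had none of 18 higher and 2 lower (2.67% and 2.62%). All CD8 cells had none of 19 higher and 3 lower (2.75% and 2.94%). The part of these 19 genes in the Klf2 difference was not tested.

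**Figure D2:**
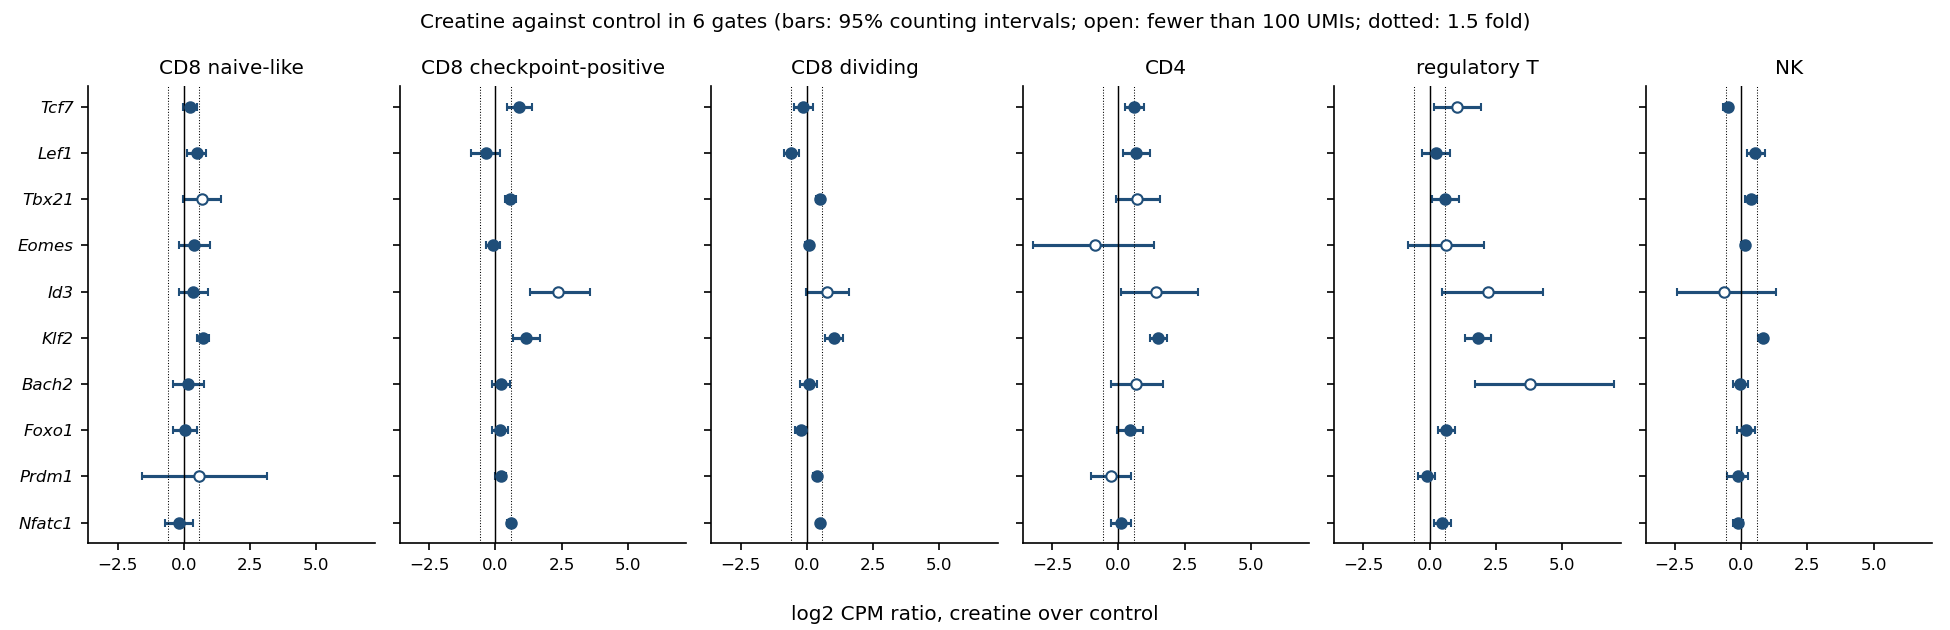
Log2 CPM ratio of creatine over control for the 10 factors in 6 gates, with 95% counting intervals; open points had fewer than 100 UMIs over both libraries and dotted lines mark 1.5 fold. Klf2 lies to the right of 0 in all 6 gates, while Tcf7 lies to the right in checkpoint-positive and CD4 cells and to the left in NK cells.

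A gene was counted as past the fold at a ratio of at least 1.5 in a gate where it had at least 100 UMIs. In naive-like cells 1 of 8 such factors was higher (Klf2), where 3.23% of 2323 genes were higher. In checkpoint-positive cells 2 of 9 were higher (Tcf7 and Klf2; 2.91% of 8118 genes), in dividing cells 1 of 9 (Klf2; 2.67% of 9706), in CD4 cells 3 of 5 (Tcf7, Lef1 and Klf2; 4.31% of 2786), in Treg cells 3 of 6 (Tbx21, Klf2 and Foxo1; 5.16% of 4829) and in NK cells 1 of 9 (Klf2; 2.65% of 7401). None was lower in these 6 gates, where 1.89%, 2.33%, 2.62%, 2.91%, 2.59% and 2.28% of genes were, in the same order. Over all 10 factors, also those under 100 UMIs, the median log2 ratio was 0.37 in naive-like, 0.39 in checkpoint-positive and 0.23 in dividing cells. It was 0.64 in CD4, 0.62 in Treg and 0.05 in NK cells. The interval of this median (median of the lower and of the upper ends) held 0 in naive-like, dividing, CD4 and NK cells. Over the factors with at least 100 UMIs the medians were 0.29, 0.22, 0.075, 0.61, 0.53 and 0.14, in the same order. Medians over all genes with at least 100 UMIs were between 0.02 and 0.06.

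Tcf7 differed in direction between gates. In checkpoint-positive CD8 cells it went from 63 to 121 UMIs, 8.75 CPM (6.73 to 11.2) to 16.4 (13.6 to 19.6), a log2 ratio of 0.91 (0.45 to 1.37). In CD4 cells the log2 ratio was 0.61 (0.27 to 0.96), but it was 0.21 with cells holding an Il2ra or Ikzf2 UMI left out, and 0.49 with equal weight for each cell. Of Klf2, the log2 ratio was 1.01 in the 110 control and 125 creatine cells without Il2ra or Ikzf2. In NK cells Tcf7 was lower in the creatine library, with a log2 ratio of −0.52 (−0.70 to −0.33). The intervals held 0 in naive-like (0.22, −0.05 to 0.48) and dividing cells (−0.13, −0.49 to 0.23).

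Lef1, the partner of TCF1, was higher in naive-like (132 and 185 CPM; log2 ratio 0.48, 0.14 to 0.83), CD4 (59.6 and 95.8; 0.69, 0.18 to 1.22) and NK cells (32.6 and 47.4; 0.54, 0.20 to 0.89). In CD4 cells it was 0.54, under 1.5 fold, with no gene of another lineage allowed. Dividing CD8 cells had the reverse, 14.1 CPM (12.4 to 15.9) in the control and 9.40 (8.06 to 10.9) after creatine. That log2 ratio of −0.58 became −0.16 when each cell had equal weight. Ccr7, the lymph node homing receptor, went with it in dividing cells, from 24.5 to 4.89 CPM. Without the 128 control and 39 creatine dividing cells that held a Ccr7 UMI, Lef1 was still 13.3 and 8.15 CPM.

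Bach2 gave intervals that held 0 in 5 gates, and its Treg value rested on 2 control and 18 creatine UMIs. Id3 had too few UMIs for the fold rule in 5 of the 6 gates. Its 9 control and 47 creatine UMIs in checkpoint-positive cells came from 8 and 19 cells. Macrophages held more Id3 in the creatine library too, 2.84 and 10.8 CPM (log2 ratio 1.92, 1.42 to 2.45).

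Over all CD8 cells, 2240 control and 1924 creatine, 2 of 10 factors were higher (Id3 and Klf2), where 2.75% of 10389 genes were higher and 2.94% lower. Klf2 was 18.9 and 49.2 CPM (log2 ratio 1.38, 1.24 to 1.53) and Id3 4.84 and 7.34 (0.60, 0.29 to 0.92), but Id3 was under the fold, at 0.38, with equal weight for each cell. The 383 control and 294 creatine CD8 cells in none of the 3 CD8 gates had 4 of 9 factors higher, where 4.19% of 4483 genes were higher and 2.99% lower. In them Klf2 was 87.7 CPM (75.3 to 102) in the control and 320 (294 to 347) after creatine. Lef1 was 36.0 and 80.2 CPM, Eomes 32.5 and 51.4, and Foxo1 44.4 and 66.7. The Foxo1 ratio was 1.503-fold, just past the threshold, and the TMM shift of −0.00659 (log2) in these cells takes it below.

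Checkpoint-positive CD8 cells with and without a Tcf7 UMI were then compared within each library, as TCF1 marks progenitor-like cells among exhausted T cells. A Tcf7 UMI was found in 37 of 799 control and 46 of 673 creatine cells. At 2000 UMIs per cell the shares were 1.81% (0.977 to 2.97) and 2.52% (1.48 to 4.03), which overlap, against 0.200% and 0.226% in macrophages. Cells without a UMI may express the gene, so both classes are mixed.

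The Tcf7-detected cells carried other genes of the memory program. Slamf6, a surface marker of progenitor-like cells, was at 109 against 11.4 CPM in the control and 140 against 12.9 in the creatine library, 9.60-fold and 10.9-fold. Bach2 was 3.04-fold and 3.59-fold higher, Lef1 3.17-fold and 6.15-fold, and Klf2 6.94-fold and 2.87-fold. S1pr1 was higher in both libraries, at 18.2 against 2.77 CPM in the control and 36.0 against 2.93 after creatine. For Id3, 43 of the 47 creatine UMIs and 4 of the 9 control UMIs lay in Tcf7-detected cells, and for Cxcr5, a chemokine receptor gene of progenitor-like cells, 7 creatine and 5 control UMIs lay there and 3 in each library did not. The 19 creatine cells with Id3 in turn held 58 of the 121 Tcf7 UMIs of that gate. In the control, the 8 cells with Id3 held 4 of the 63 Tcf7 UMIs, at 54.2 against 8.28 CPM in cells without. Gzmb in cells with Id3 was unlike in the libraries, 2222 against 1245 CPM in the control and 168 against 1463 after creatine.

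Prdm1, Havcr2, Gzmb and Prf1 were lower in the same cells. Prdm1 stood at 21.2 against 51.3 CPM in the control and 21.6 against 60.2 in the creatine library. Havcr2 (51.5 against 143 and 52.2 against 187), Gzmb (367 against 1298 and 297 against 1511) and Prf1 (203 against 849 and 310 against 1143) behaved alike. Havcr2 is a checkpoint gene by which this gate was set. Tbx21 and Nfatc1 had intervals that held 0 in both libraries, and Tox, which sustains the exhausted state, was 361 against 385 and 324 against 388 CPM. Ifng gave unlike values in the libraries. Tcf7-detected cells had 285 CPM against 365 in the control, but 103 against 967 in the creatine library. A difference between libraries in these contrasts was not tested.

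**Figure D3:**
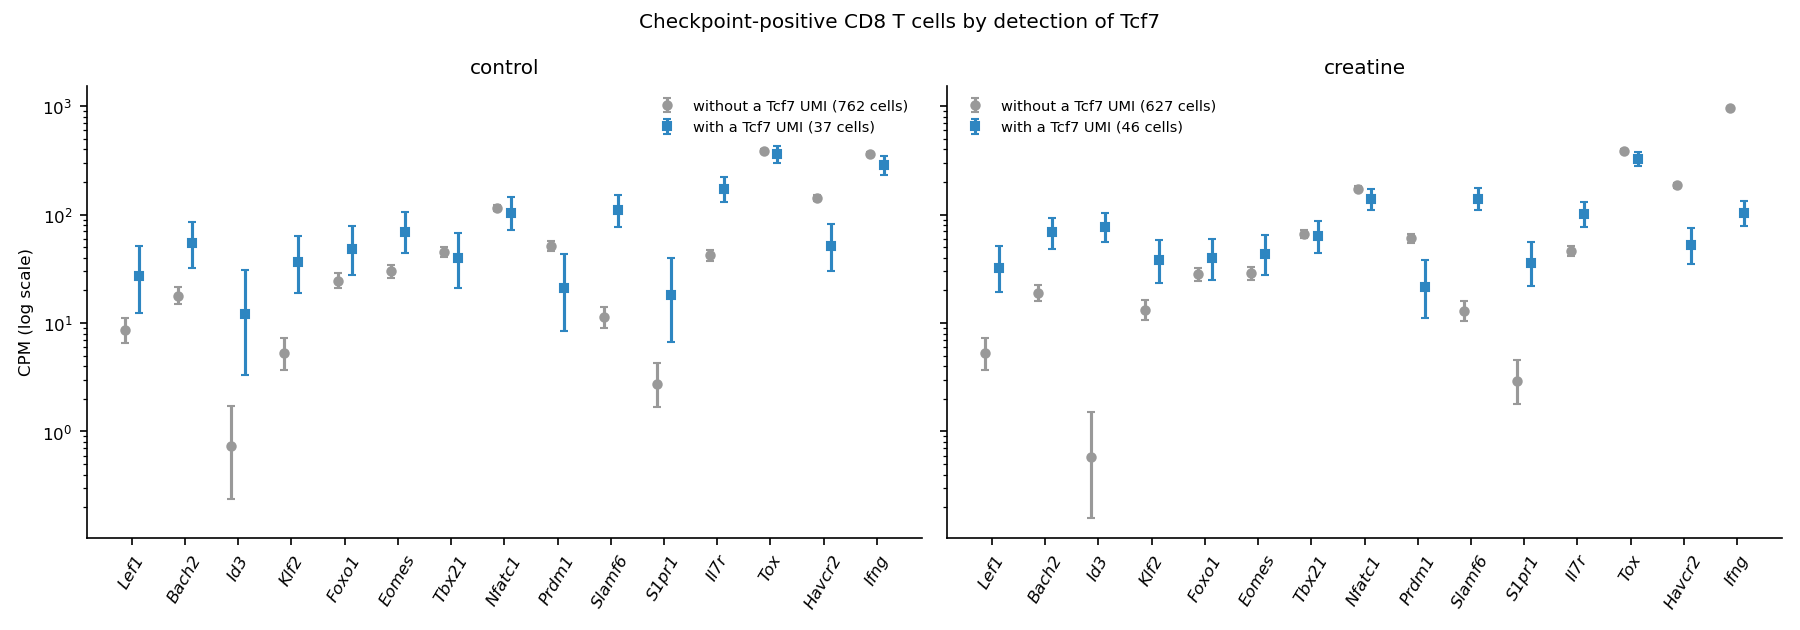
CPM (log axis) of 15 genes in checkpoint-positive CD8 cells with (blue squares) and without (grey circles) a Tcf7 UMI, control left and creatine right, with 95% Poisson intervals. Slamf6, Bach2, Lef1, Id3 and Klf2 sit higher, and Prdm1 and Havcr2 lower, in cells with Tcf7 in both libraries.

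The same order was seen in dividing CD8 cells, where 54 control and 51 creatine cells had a Tcf7 UMI. S1pr1 was 20.5 against 1.88 CPM in the control and 30.3 against 1.55 after creatine. Prdm1 was 23.5 against 47.5 and 20.2 against 62.4 CPM, and 19 of 22 control and 28 of 38 creatine Id3 UMIs were in Tcf7-detected cells. Eomes was higher in the Tcf7-detected cells, at 69.8 against 41.8 CPM in the control and 63.2 against 45.0 after creatine.

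Of the T-box pair, Tbx21 was higher in the creatine library in checkpoint-positive and dividing CD8 cells, where the Eomes intervals held 0. In checkpoint-positive cells Tbx21 went from 44.9 CPM (40.1 to 50.1) to 66.1 (60.4 to 72.3), a log2 ratio of 0.56 (0.35 to 0.77), and Eomes from 31.8 to 29.8 (−0.09, −0.37 to 0.18). Dividing cells gave 38.0 and 53.8 CPM of Tbx21 (0.50, 0.36 to 0.64) and 43.8 and 46.2 of Eomes (0.08, −0.07 to 0.22). For each Tbx21 UMI there were thus 0.709 Eomes UMIs (0.596 to 0.842) in control and 0.451 (0.383 to 0.530) in creatine checkpoint-positive cells, and 1.16 and 0.859 in dividing cells. These Tbx21 ratios were below 1.5 fold. Treg cells had 27.7 and 41.9 CPM of Tbx21 (0.59, 0.07 to 1.12), from 64 and 63 UMIs, and this ratio was 0.53 under TMM scaling, below the fold.

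A list of 13 genes known to act downstream of KLF2, FOXO1, TCF1 or the T-box factors was not uniform. Ifng, the effector cytokine gene, was 362 and 902 CPM in checkpoint-positive cells (log2 ratio 1.32) and 299 and 519 in dividing cells (0.79). Cxcr3, a T-bet target, was 25.6 and 41.1 CPM in checkpoint-positive cells. In naive-like and CD4 cells Gzmb was lower, from 283 to 144 and from 284 to 143 CPM, and Slamf6 was higher, from 96.4 to 164 and from 130 to 280. Both gates require absent genes, and the part of missed markers in these differences was not tested. Ifng in CD4 cells was higher, 79.0 and 164 CPM (log2 ratio 1.06). Of the downstream genes with at least 100 UMIs, checkpoint-positive cells had 2 of 10 higher and none lower (all genes 2.91% and 2.33%), and dividing cells 1 of 12 higher and 1 lower (2.67% and 2.62%). Naive-like cells had 1 of 9 higher and 1 lower (3.23% and 1.89%), and CD4 cells 3 of 8 higher and 1 lower (4.31% and 2.91%). Treg cells had 1 of 9 higher and none lower (5.16% and 2.59%), and NK cells 3 of 10 higher and 2 lower (2.65% and 2.28%). Genes of this list also entered the naive-like gate, Ccr7 among them, and Klrg1 the split of NK cells.

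NK cells had a different profile. Tbx21 went from 73.5 CPM (63.7 to 84.2) to 94.03 (86.9 to 102), a log2 ratio of 0.36 (0.13 to 0.59), and Eomes from 212 to 233 (0.14, −0.00 to 0.27). Tcf7 was the factor lower in creatine NK cells, at 137 CPM (124 to 152) and 95.9 (88.8 to 103), and its share of cells was 23.9% and 16.5%. Gzmb (675 and 1441 CPM), Prf1 (553 and 1013) and Klrg1 (25.4 and 43.0) were higher, and Il7r (59.1 and 24.8) and Slamf6 (26.2 and 13.6) lower. For Ifng (74.5 and 67.3 CPM) and Cxcr3 (55.9 and 59.2) the intervals of the ratio held 0.

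NK cells with a UMI of the maturation markers Itgam or Klrg1 made up 24.2% of control and 36.9% of creatine NK cells, before any thinning, at 4405 and 5252 median UMIs. Klf2 in these cells was 84.2 CPM (65.0 to 107) in the control and 301 (280 to 323) after creatine, a log2 ratio of 1.84 (1.47 to 2.23). In NK cells without these markers it was 123 CPM (108 to 139) and 135 (125 to 147), a log2 ratio of 0.14 (−0.08 to 0.36). The intervals of both ratios lie apart, and the control library had the higher Klf2 in cells without the markers. A single UMI of either marker sufficed, and whether the marked cells were equally mature in both libraries was not tested. In the marked cells Il7r was 29.8 CPM in the control and 5.89 after creatine (23 and 15 UMIs), and Gzmb 898 and 1740. Ifng was lower in them, at 110 and 81.3 CPM (log2 ratio −0.44, −0.81 to −0.06). At equal depth 16.3% and 39.0% of cells with markers, and 19.4% and 20.5% of those without, held a Klf2 UMI.

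Tcf7 was lower in both NK classes, 124 and 66.8 CPM with markers (−0.90, −1.27 to −0.52) and 142 and 113 without (−0.33, −0.55 to −0.12). Tbx21 was 66.1 and 101 CPM with markers (0.61, 0.17 to 1.07) and 76.3 and 90.0 without (0.24, −0.03 to 0.52), so these intervals overlap. Of 9 factors with at least 100 UMIs, 3 were higher (Lef1, Tbx21 and Klf2; 6.98% of 4256 genes) and 1 lower (Tcf7; 2.21%) in cells with markers, although the Lef1 interval held 0 and TMM scaling put Lef1 (0.57) and Tbx21 (0.58) below the fold. In cells without markers no factor passed the fold, where 2.48% of 6253 genes were higher and 2.16% lower. From a list of 24 other fate factors, 2 of the 15 with at least 100 UMIs were higher and 1 lower in cells with markers (all genes 6.98% and 2.21%). Zeb2, which acts with T-bet in terminal NK maturation, was 1 of the 2 higher, at 94.6 and 174 CPM. The other higher factor and the lower one are not named here. In cells without markers 1 of 18 was higher and none lower (all genes 2.48% and 2.16%).

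**Figure D4:**
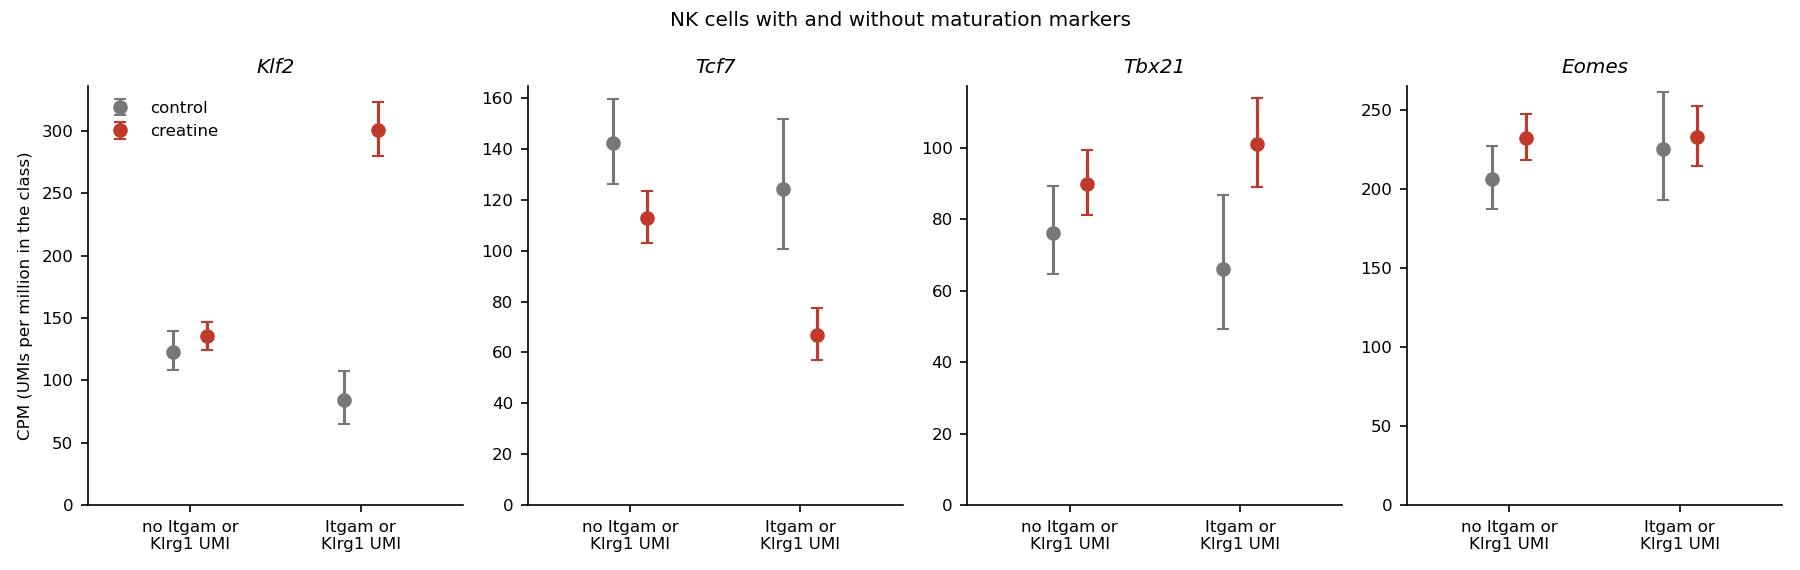
CPM of Klf2, Tcf7, Tbx21 and Eomes in NK cells without and with a UMI of Itgam or Klrg1, control (grey) and creatine (red), with 95% Poisson intervals; each axis starts at 0. Creatine NK cells with the markers stand apart for Klf2 at 301 CPM and have the lowest Tcf7, 66.8 CPM.

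In Treg cells Foxo1, which upholds naive and central Treg cells, was 67.6 CPM (57.4 to 79.1) in the control and 104 (88.6 to 122) after creatine, a log2 ratio of 0.63 (0.30 to 0.95) that was 0.56 under TMM scaling, below the fold. Prdm1 was close, at 92.3 and 85.7 (−0.11, −0.43 to 0.22). S1pr1, the egress receptor under KLF2 control, was 31.6 and 70.4 CPM (1.15, 0.71 to 1.61). The 25 control and 36 creatine Treg cells with a Klf2 UMI held S1pr1 at 195 and 273 CPM, against 18.7 and 32.4 in the rest.

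CD4 cells had higher S1pr1 too, at 114 and 268 CPM (1.23, 0.89 to 1.59). It did not go with Klf2 in every gate. S1pr1 was 20.8 and 19.2 CPM in NK cells (−0.11, −0.57 to 0.36) and 3.22 and 3.38 in dividing CD8 cells (0.07, −0.46 to 0.61). Klf3, a KLF2 relative, was 59.6 and 154 CPM in CD4 cells (1.37, 0.89 to 1.87) and 90.0 and 169 in naive-like cells (0.91, 0.51 to 1.32). Satb1 (137 and 88.8 CPM) and Ikzf2 (395 and 259) were lower in CD4 cells. Ikzf2 is also a gene by which the gates were checked for Treg cells. S1pr1, Klf3 and Satb1 were not recomputed in CD4 cells without an Il2ra or Ikzf2 UMI, where the Klf2 log2 ratio was 1.01.

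Prdm1 was higher in dividing CD8 cells, 45.8 CPM (42.8 to 49.0) and 59.7 (56.2 to 63.3), a log2 ratio of 0.38 (0.25 to 0.51). In checkpoint-positive cells its interval touched 0 (0.20, −0.01 to 0.41). Nfatc1 was higher in checkpoint-positive (114 and 171 CPM; 0.58, 0.45 to 0.71), dividing (94.96 and 134; 0.50, 0.41 to 0.59) and Treg cells (77.1 and 107; 0.47, 0.16 to 0.79), all under 1.5 fold. NK cells had 117 and 107 CPM (−0.13, −0.32 to 0.07). Foxo1 intervals held 0 in every gate but Treg.

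Of 24 other fate factors, 5 of the 18 with at least 100 UMIs were higher in checkpoint-positive cells and none lower, where 2.91% and 2.33% of all genes were. They were Nr4a1 (8.89 and 18.6 CPM), Nr4a2 (122 and 219) and Nr4a3 (14.2 and 26.0), orphan receptors induced by antigen receptor signaling, with Batf (79.9 and 135) and Nfil3 (20.8 and 34.0). In dividing cells 3 of 21 were higher (all genes 2.67%), Nr4a2 (111 and 196 CPM), Nfil3 (20.9 and 34.0) and Tox2 (4.42 and 8.59). In NK cells 1 of 19 was higher (all genes 2.65%), Nr4a1, at 11.8 and 29.9 CPM. The counts were 1 of 8 higher in naive-like cells (all genes 3.23%), 1 of 12 higher and 2 lower in CD4 cells (4.31% and 2.91%), and none of 15 in either direction in Treg cells (5.16% and 2.59%).

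**Figure D5:**
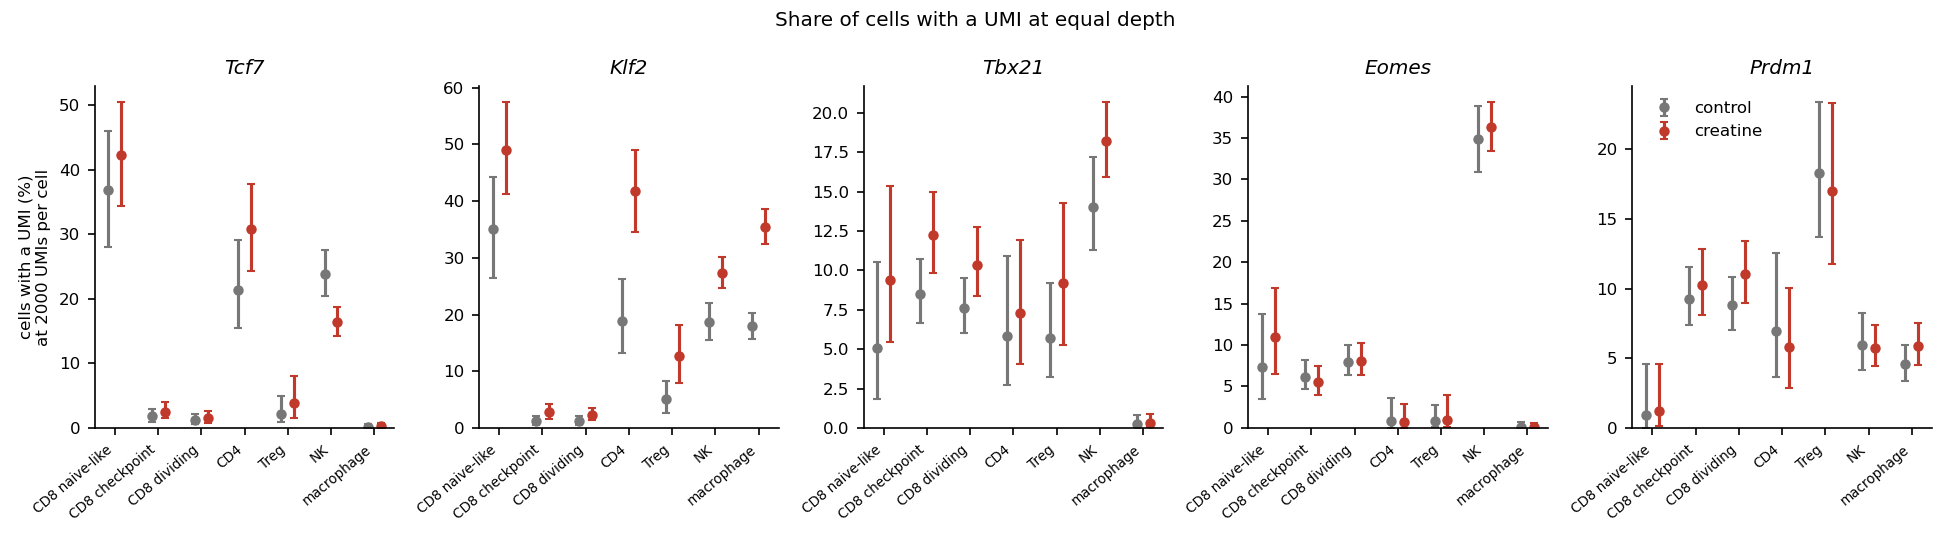
Share of cells with a UMI of 5 factors at 2000 UMIs per cell in 6 gates and in macrophages, control (grey) and creatine (red), with 95% Clopper-Pearson intervals; each axis starts at 0. Tcf7, Tbx21 and Eomes are near 0 in macrophages, whereas Klf2 is at 17.9% and 35.5% there.

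Across the 12 gate and library combinations, the genes most like Tcf7 in log2(CPM + 1) were Scml4, Gm2682 and Trim12a, with Pearson r of 0.973, 0.972 and 0.968. For Tbx21 they were Cd244, Plscr4 and Arap3 (0.905, 0.903 and 0.891), for Eomes Rpl10, Ugcg and Klrc3 (0.956, 0.955 and 0.953) and for Prdm1 Otub1, Prkar1a and Rabif (0.981, 0.980 and 0.973). These r are the highest of 10761 genes, over points that share 2 libraries. Tcf7 spans chr11:52252371-52283014 on the minus strand (GRCm38), where the counted gene Gm26551 overlaps it on the same strand. Klf2 (chr8:72319033-72321656), Tbx21 (chr11:97098071-97115331) and Prdm1 (chr10:44437177-44528501) overlap no other counted gene.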

How the data were processed

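The deposited values are raw UMI counts per gene and cell, which the authors made with Cell Ranger (3.0.2 and mm10 per the submitters' processing notes) as 1 matrix per library, without normalization. Doublets were not called. Instead, a cell with UMIs of 2 or more of 15 genes of other lineages was left out of the lymphocyte gates. T cells needed at least 2 UMIs of Cd3d, Cd3e and Cd3g, CD8 cells at least 2 of Cd8a and Cd8b1 with no Cd4 or Foxp3, CD4 cells at least 1 of Cd4, Treg cells at least 1 of Foxp3, and NK cells at least 2 of Ncr1 and Klrb1c with at most 1 Cd3 UMI. Macrophages needed at least 3 UMIs of marker genes that include Csf1r and Adgre1. Some marker genes used in gating are not reported here.

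A total of 408 control and 274 creatine cells exceeded 25% mitochondrial UMIs. No kept cell had under 300 UMIs or 100 genes, and 30 barcodes occurred in both libraries. Counts were summed per gate. In a gate sum, 1 UMI was between 0.0537 and 1.30 CPM. Ratios carry exact conditional binomial intervals, CPM exact Poisson and shares Clopper-Pearson intervals. Thinned shares are the mean over all draws of 2000 UMIs, their intervals use the rounded number of cells, and shallower cells (1 to 30 per gate) were left out. The 10 factors, the lists of 24 and 13 genes and the gates were chosen with earlier results of these data known. Named genes are all 10 factors and, from both lists, genes past 1.5 fold with 100 UMIs, though not each of them in every gate. For Tcf7, Tbx21, Eomes and Prdm1 the 3 genes with the highest correlation were named. Genes compared between Tcf7- or Klf2-detected cells, and the gate checks, were also named. The intervals were tested on simulated Poisson counts summed per gate, which is the model they assume. Grouping of UMIs within cells was not simulated. TMM factors came from edgeR 4.0.16 (R 4.3.3); other steps used Python 3.11.15 with scipy 1.17.1.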

Additional observations from a re-analysis of the deposited data

Results flagged for a closer look

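Tcf7 and Lef1 had counting intervals wholly above 0 in some gates and wholly below 0 in another. For Tcf7 the log2 ratios of creatine over control were 0.91 in checkpoint-positive CD8, 0.61 in CD4 and 1.03 in Treg cells (21 and 28 UMIs), against −0.52 in NK cells. The checkpoint-positive value was 0.60 with equal weight for each cell. In checkpoint-positive cells without an Id3 UMI, Tcf7 was close in both libraries, at 8.28 CPM in the control and 8.83 after creatine. For Lef1 they were 0.48 in naive-like CD8, 0.69 in CD4 and 0.54 in NK cells, against −0.58 in dividing CD8 cells. With 1 library per group, the difference between gates was not tested.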

How the results depend on the processing

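Over 673 recomputed ratios of single factors, 654 stayed within the counting interval of the reported value, 19 left it, and no ratio past 1.5 fold changed sign. With a fold of 2, the number of factors higher was 0 in naive-like, 1 in checkpoint-positive, 1 in CD4, 1 in Treg, 0 in NK and 1 in all CD8 cells (2 at 1.5 fold). With a minimum of 30 UMIs it was 2 in naive-like, 2 in dividing and 6 in CD4 cells. At each of these settings the number of all genes past the fold moved too, by more than 1.5 fold in all 14 counts. Shares over all genes at these settings are not given, so these counts of factors have no background beside them. The medians over the 10 factors stayed within their intervals under TMM scaling, equal weight for each cell, CPM that left out genes of mitochondria and ribosomal proteins, at most 10% mitochondrial UMIs, no gene of another lineage, the deepest 5% of cells left out and stricter gates. Klf2 ranged from 0.46 to 0.80 in naive-like and from 1.01 (without Il2ra or Ikzf2 cells) to 2.20 (stricter gates) in CD4 cells, and Tcf7 from 0.21 to 1.04 in CD4 cells. Alternatives chosen after seeing the data left out cells with naive-cell markers or weighted CD8 subsets or NK classes as in the control, which gave Klf2 0.69 in NK cells. Differences in thinned shares moved past their interval at 1000 UMIs in 2 of 60 cases. No paired analysis was possible because each group has 1 library.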

Other observations

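Dividing CD8 cells with a Ccr7 UMI, a split made after the data were seen, numbered 128 in the control and 39 after creatine. They held 22.4 CPM of Tcf7 (17.8 to 27.9) in the control and 47.7 (36.1 to 61.8) after creatine, against 3.87 and 4.02 CPM in dividing cells without Ccr7. Klf2 in the same cells was 7.29 CPM (4.76 to 10.7) and 48.5 (36.9 to 62.8), against 5.49 and 9.41 without Ccr7.

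NK cells with a Klf2 UMI, 161 control and 422 creatine cells, held S1pr1 at 50.8 and 39.1 CPM, against 11.7 and 9.95 in NK cells without one. Eomes in creatine NK cells was 275 against 213 CPM between these classes, and Gzmb was 524 against 722 CPM in the control but 1620 against 1358 in the creatine library.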
